A study of Mus musculus with 6 samples.

Results

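The comparison was of nuclei from photothrombotic (PT) brain lesions 21 days post injury (dpi) in mice whose fibroblasts were targeted for loss of Tgfbr2, set against nuclei from wild-type lesions of the same age. Its members were the 18397 nuclei with at least 1000 unique molecular identifiers (UMIs) and under 5% mitochondrial UMIs in these 2 libraries, out of 60729 such nuclei in all 6 libraries of the series. The wild-type library (Ctrl) held 12069 of them and the deletion library (Tgfbr2-cKO) 6328. Ctrl mice were wild type, and Tgfbr2-cKO mice carried Col1a2(creER) and Tgfbr2(flox), a tamoxifen-activated Cre that acts where the Col1a2 promoter has been active. The study gave tamoxifen to deletion mice from before injury and again at intervals until tissue was taken, and the labels list no treatment for Ctrl. For such strains its methods list controls given tamoxifen where relevant. They name uninduced controls only for some resting mice and some experiments with an artery-occlusion stroke model. They do not say outright which kind these libraries held. In PT injury, light activates a circulating dye so that cortical vessels clot. All mice of both groups were injured, and the lesion was dissected out. The paper describes this tissue as lesion together with leftover brain parenchyma. How much parenchyma each library held was not measured. Each library pooled 1 male and 1 female mouse, and nuclei were sorted on the DNA dye DAPI before droplet capture. With 1 library per group no test across mice was possible, so each difference is between 2 libraries and not between genotypes. Female and male nuclei, told apart by Xist and Y-linked transcripts, stood for 1 mouse each, and their ratios are given as the only view of 2 separate animals.

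TGFβ is a family of secreted ligands that bind the type II receptor Tgfbr2, which then engages the type I receptor and passes the signal to SMAD proteins. In wounds this pathway drives fibroblasts to divide, contract and lay down collagen, and in brain lesions the resulting fibrotic core is ringed by reactive astrocytes and filled with macrophages. Astrocytes, oligodendrocytes, vessels and lymphocytes are neighbours of that core. They carry the Cre allele too but are not defined by Col1a2 expression. In reporter mice the paper found recombination by this Cre to be highly specific for brain fibroblasts. Cre activity was not measured in the nuclei of these libraries. The profiles of the neighbouring cells address what the dissected tissue around altered fibroblasts held.

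Levels are in CPM, the UMIs of a gene per 1000000 non-mitochondrial UMIs, summed over the nuclei of a class in a library. A log2 ratio is that of Tgfbr2-cKO over Ctrl, and values in brackets after it are exact 95% limits that cover counting error only. A gene entered a class where the pooled rate gave at least 30 expected UMIs in the smaller of the 2 sums. A gene is called 2-fold higher or lower as a description of the 2 libraries. No gene-wise test stands behind it.

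Libraries differed in ways that touched many classes. The median nucleus had 5221 UMIs in Ctrl and 6537 in Tgfbr2-cKO. Doublets, droplets with more than 1 nucleus, were called up to a number set by each library's barcodes, 14246 and 7205. That gave 1420 nuclei (11.8%) in Ctrl and 380 nuclei (6.01%) in Tgfbr2-cKO, so this gap was set and not measured. The 2 libraries shared 28 barcodes. Transcripts of abundant cells appeared at a low level in other classes. The summed level of 10 fibroblast markers in the 9 classes outside fibroblasts, stromal cluster 10 and mural cells ran from 540 to 3484 CPM in Ctrl and from 71.9 to 829 CPM in Tgfbr2-cKO, lower in all 9. The summed level of 10 neuron markers in 11 other classes ran from 14.1 to 102 CPM in Ctrl and from 103 to 371 CPM in Tgfbr2-cKO. The part of this carried-over RNA in any single ratio was not tested. Of 9836 genes that entered in at least 5 of 12 classes, 17 passed 2-fold the same way in each class they entered. Col1a1, Col1a2, Col5a2, Col11a1, Col14a1, Lum, Slc47a1, Mmp12, Sfrp4, Hal, Slc26a7, Emp3, Htr2b, Islr, Mfap4 and Gm20721 were the 16 lower ones, most of them collagen or fibroblast transcripts. Hif3a, which encodes a hypoxia-inducible factor subunit, was the 1 higher gene, with a median log2 ratio of 4.54 over 5 classes.

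Tgfbr2 itself, the deletion target, was still counted in fibroblasts of the deletion library. Its level in fibroblasts was 243 CPM in Ctrl and 201 CPM in Tgfbr2-cKO, a log2 ratio of -0.27 (-0.37 to -0.18). The counts are per gene and not per exon, so these levels do not measure recombination. In neurons and in several glia the gene was lower as well. Neurons had 25.8 and 11.9 CPM (-1.11, -1.42 to -0.80). Their clusters differed in Tgfbr2 level, from 6.57 CPM in cluster 9 to 40.1 CPM in cluster 22 of Tgfbr2-cKO among those with over 50 nuclei, and in their share of each library. Oligodendrocyte precursor cells (OPCs) had 68.4 against 35.0 CPM (-0.97, -1.47 to -0.49), oligodendrocytes differed by -0.57 (-0.80 to -0.33) and astrocytes by -0.42 (-0.57 to -0.27). Microglia went the other way, at 361 and 405 CPM (0.17, 0.08 to 0.25), and macrophages had 366 CPM in both libraries. In stromal cluster 10 the ratio was 0.07 (-0.08 to 0.22), in T/NK cells -0.14 (-0.34 to 0.06) and in endothelial cells -0.15 (-0.38 to 0.08), all within counting error. Fibroblast markers were also lower in these nuclei, from 540 to 71.9 CPM in neurons and from 2335 to 338 CPM in oligodendrocytes, and their part was not tested.

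In pooled nuclei the make-up of the dissected tissue differed most in neurons, oligodendrocytes, fibroblasts and 1 further stromal group. Fibroblasts were 30.5% (29.7 to 31.4) of Ctrl nuclei and 8.88% (8.19 to 9.61) of Tgfbr2-cKO nuclei. An unnamed stromal group, cluster 5, led by the bone and matrix genes Bglap, Eln, Sp7, Col8a1 and Fap, held 1654 Ctrl nuclei and 3 Tgfbr2-cKO nuclei. It had 9 raised fibroblast and 7 raised osteoblast markers and stayed unnamed because bone genes led it. At resolution 1 a group led by Eln and Tnmd, of 1915 Ctrl and 25 Tgfbr2-cKO nuclei, was named fibroblast. An osteoblast group there held 226 and 2. With clusters 5 and 10 counted in, the fibroblast log2 ratio of -1.78 became -1.68. A second unnamed stromal group, cluster 10, led by Trpm3, Slc6a20a, Ptgds and Slc13a4, held 6.31% and 6.81%. Oligodendrocytes were 1.15% (0.97 to 1.36) against 10.5% (9.76 to 11.3), and neurons were 2.30% (2.04 to 2.59) against 16.4% (15.5 to 17.4). Both neural classes were therefore several times more frequent in the deletion library, in female and in male nuclei alike.

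Vascular and immune shares differed less in pooled nuclei of the main clustering. In male nuclei, however, the log2 ratio was -1.82 for endothelial cells and -1.53 for fibroblasts. Endothelial nuclei, which line vessels, were 5.34% of Ctrl and 1.91% of Tgfbr2-cKO (log2 ratio -1.48, -1.78 to -1.20). Mural nuclei, the pericytes and smooth muscle around them, were 1.17% and 1.01%, and their ratio was 0.15 in female and -0.76 in male nuclei. T/NK cells were 2.63% and 4.84% (0.88, 0.64 to 1.11), microglia 11.6% and 15.9%, macrophages 12.4% and 17.2%, dendritic cells 1.10% and 1.39%. OPCs were 1.67% and 1.98%, and astrocytes were 10.1% and 13.1%. Shares within a library are bound to each other and to how the lesion was dissected. Against nuclei that were neither neurons nor oligodendrocytes, the ratio was -1.38 for fibroblasts, -1.08 for endothelial cells, 1.28 for T/NK cells and 0.78 for astrocytes. When the 2 libraries were clustered alone the microglia ratio of 0.45 became 1.49 and the macrophage ratio of 0.48 became 0.05. The astrocyte ratio was -0.15 (-0.29 to -0.01) in that clustering, in which a further group of 350 Ctrl and 544 Tgfbr2-cKO nuclei, with 10 raised astrocyte markers, stayed unnamed and a Trpm3 and Slc6a20a group took the astrocyte name.

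**Figure D1:**
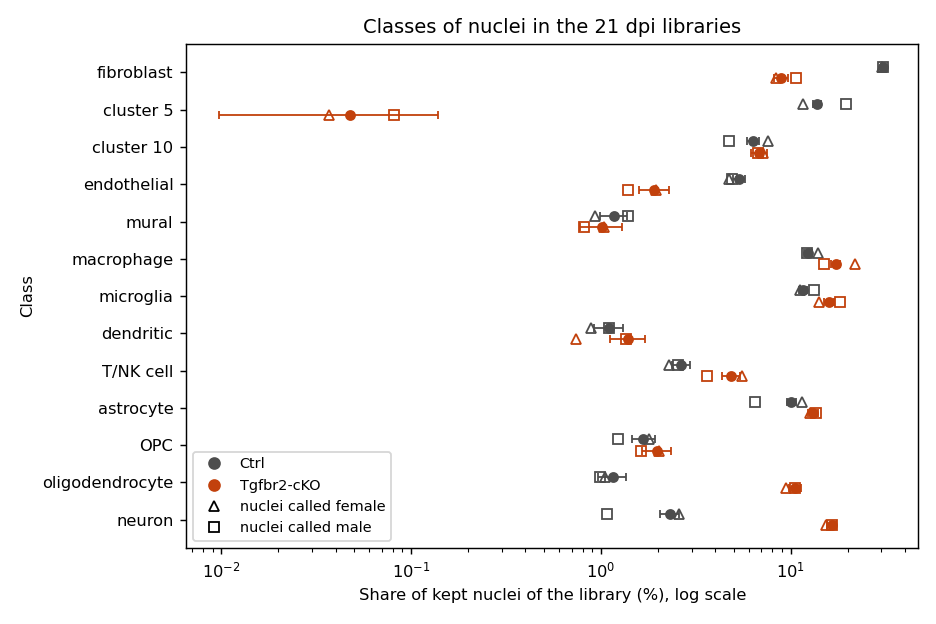
The horizontal axis gives the percentage of a library's nuclei on a log scale and each row is a class, with markers for all, female and male nuclei of Ctrl and Tgfbr2-cKO. Fibroblasts and cluster 5 lie to the left in Tgfbr2-cKO, at 8.88% and 0.047%, while oligodendrocytes and neurons lie to the right, at 10.5% and 16.4%.

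In a list of stress and metabolic genes that respond to glucocorticoid hormones, Fkbp5 was higher in nearly every class and the rest of the list in fewer. The list of 18 held Fkbp5, a co-chaperone of the glucocorticoid receptor, the transcription factors Zbtb16 and Klf9, the clock gene Per1, the kinase gene Sgk1 and Hif3a. It also held Nr3c1, the gene of the receptor itself, so its counts and medians include that gene. Fkbp5 (chr17:28399094-28517527, minus strand, GRCm38) was at least 2-fold higher in 11 of the 12 classes, neurons being the exception at 58.9 and 86.4 CPM. In macrophages it stood at 102 CPM in Ctrl and 1003 CPM in Tgfbr2-cKO (3.30, 3.19 to 3.41). Split by mouse, female macrophages had 127 and 1576 CPM and male macrophages 60.6 and 182 CPM. In microglia the female values were 171 and 1384 CPM and the male values 143 and 269 CPM. The female Tgfbr2-cKO mouse was the highest of the 4 mice in every class shown, and the male Tgfbr2-cKO values lay nearer to Ctrl. In male T/NK cells the 2 libraries had 140 and 135 CPM. Not every induced member of the list was higher. Over all nuclei except neurons, Tsc22d3 was 126 CPM in Ctrl and 68.4 CPM in Tgfbr2-cKO, and Klf9 was 212 and 171 CPM. Those sums pool classes whose shares differed between the libraries.

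Hif3a (chr7:17031507-17062427, minus strand) was highest in astrocytes and oligodendrocytes of the deletion library. Oligodendrocytes had 1.03 CPM in Ctrl and 173 CPM in Tgfbr2-cKO, astrocytes had 20.1 and 183 CPM, and OPCs 3.94 and 91.5 CPM. The female Tgfbr2-cKO mouse was again the higher, at 296 against 58.5 CPM in the male for oligodendrocytes and 278 against 95.0 CPM for astrocytes. Stromal cluster 10 had 5.05 and 136 CPM and fibroblasts 4.61 and 90.5 CPM, the latter 197 CPM in the female and 17.4 CPM in the male mouse, whereas microglia had 0.430 and 6.12 CPM. Zbtb16 was 112 and 773 CPM in fibroblasts, 173 and 872 CPM in oligodendrocytes and 226 and 749 CPM in endothelial cells. Its split by mouse varied with the class. Endothelial nuclei of Tgfbr2-cKO had 674 CPM in the female and 725 CPM in the male mouse, fibroblasts 1138 and 531 CPM, and macrophages 77.0 and 14.7 CPM, the male macrophage value in Ctrl being 16.5 CPM. Per1 was 12.6 and 41.8 CPM in macrophages, 12.2 and 63.1 CPM in the female and 11.6 and 13.8 CPM in the male nuclei. The receptor gene Nr3c1 was below Ctrl in each class in which the list was counted, with ratios from -0.71 in mural cells to -0.02 in neurons.

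Counted over the list, oligodendrocytes had 7 of 13 entered members 2-fold higher and none lower, with a median log2 ratio of 1.90. The background in that class was 4.56% of 5192 genes higher (237 genes) and 5.39% lower (280 genes), with a median of -0.01. With trimmed-mean (TMM) scaling those counts became 305 higher and 224 lower. In astrocytes 7 of 17 were higher and 1, Lcn2, was lower (median 0.49), where 4.00% of 13163 genes were higher (527) and 5.18% lower (682). In fibroblasts 6 of 16 were higher (median 0.34), where 4.51% of 11431 genes were higher (516) and 4.72% lower (539), and in male fibroblast nuclei the list's median was -0.17. The other classes held fewer. Microglia had 4 of 14 higher, against 2.81% of all genes, and Lcn2 lower, against 3.42%. Macrophages had 3 of 14 higher (3.23% of all genes) and Lcn2 lower (4.36%), OPCs 3 of 9 higher (4.14%) and T/NK cells 2 of 9 higher (3.61%). Endothelial cells had 2 of 9 higher (1.67%) and Lcn2 lower (5.86%), and mural cells 2 of 5 higher (3.67%) and Errfi1 lower (7.00%). Neurons had none of 8 higher (1.54%) and Errfi1 lower (3.03%). In T/NK cells the list's median of 0.54 became -0.28 without cluster 24, a group described with those cells.

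**Figure D2:**
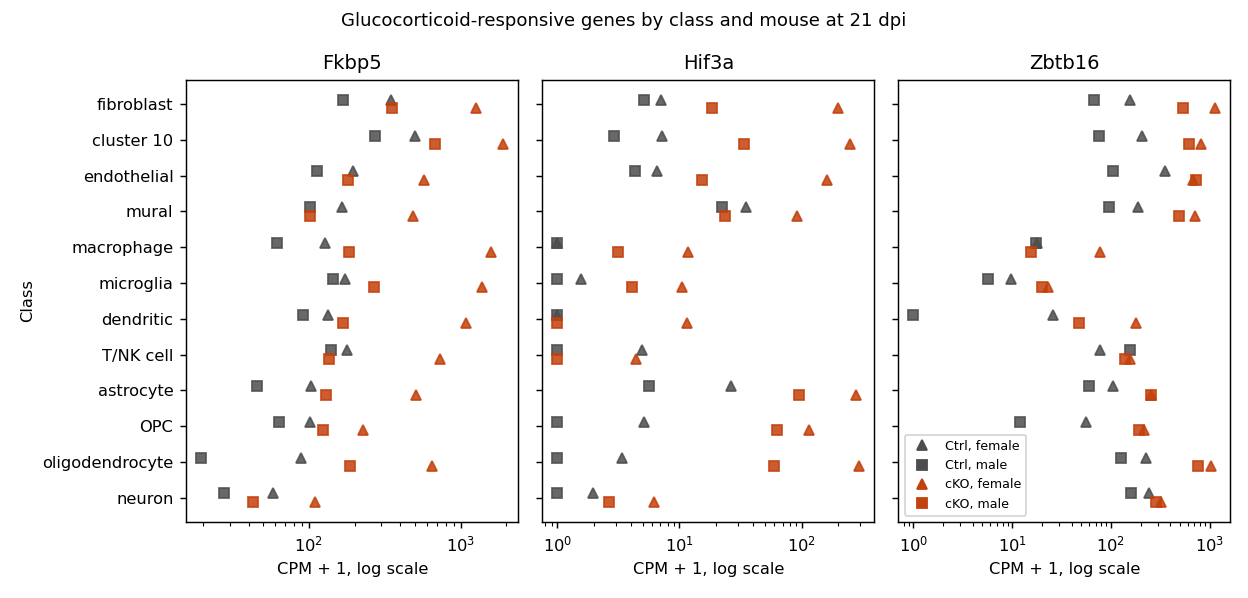
Each panel plots 1 gene, with CPM + 1 on a log axis and the classes in rows, and points for the female and male nuclei of both 21 dpi libraries. In macrophages the female Tgfbr2-cKO point of Fkbp5 lies at 1576 CPM and the male one at 182 CPM, both above the Ctrl points at 127 and 60.6 CPM.

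The glucocorticoid receptor binds as a pair to a palindrome, here searched as GNACA, then 3 bases of any kind, then TGTNC, letters that read the same on both strands. Within 250 bases before a RefSeq gene start these letters stood in 127 of 32851 promoters (0.387%). By gene, counting any of its starts, they stood in 119 of 27025 genes (0.440%) and in 3 of the 16 list genes with a promoter in the table, Sgk1, Mt1 and Map3k6. The list was made of genes known to respond to glucocorticoids, so this count is a description. The Sgk1 stretch is shown because Sgk1 was both a match and a member 2-fold higher in oligodendrocytes (84.3 and 316 CPM). It lies at chr10:21993640-21993889 on the plus strand of GRCm38.p6, before 1 of the gene's starts, with the match in capitals and its first base at -188:
Sgk1 upstream stretch: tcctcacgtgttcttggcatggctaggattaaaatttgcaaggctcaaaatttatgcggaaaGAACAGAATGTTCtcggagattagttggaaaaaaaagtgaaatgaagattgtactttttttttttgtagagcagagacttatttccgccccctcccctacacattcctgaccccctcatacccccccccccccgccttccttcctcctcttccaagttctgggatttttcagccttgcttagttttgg
The female oligodendrocyte ratio of Sgk1 was 2.74 and the male ratio 0.04, and in astrocytes, microglia, macrophages, fibroblasts, endothelial cells, OPCs, T/NK cells and neurons its ratio lay between -0.14 and 0.58.

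Astrocytes of the deletion library had more transcripts of the genes that carry out their resting tasks. All 22 members of the homeostatic list entered, all 22 were above Ctrl and 12 of them by 2-fold or more, with a median log2 ratio of 1.03 (1.08 in female and 0.75 in male nuclei). Over all astrocyte genes 4.00% were higher and 5.18% lower, with a median of -0.02. When the 2 libraries were clustered alone, the groups with the most raised astrocyte markers were one of 670 Ctrl and 255 Tgfbr2-cKO nuclei, with 9 raised astrocyte and 5 raised OPC markers, and the unnamed group of 350 and 544 nuclei with 10 raised astrocyte markers. The 2 libraries thus had different shares of these groups, and the part of that in the list values was not tested. The 10 astrocyte markers of the class, Slc1a2 and Gpc5 among them, summed to 5988 CPM in Ctrl and 13063 CPM in Tgfbr2-cKO. Fibroblast markers in the same nuclei summed to 2252 and 829 CPM, and the part of these shifts was not tested. The glutamate transporter gene Slc1a2 stood at 1342 CPM in Ctrl and 4619 CPM in Tgfbr2-cKO (1.78, 1.75 to 1.81). In the female mice the values were 1595 and 4609 CPM and in the male mice 1159 and 4676 CPM, so neither mouse of 1 group overlapped those of the other. Gpc5, a glypican of the cell surface, had 489 and 2459 CPM (2.33). Slc7a10, which exchanges small neutral amino acids such as D-serine, had 4.01 and 39.0 CPM (3.28), and the GABA transporter gene Slc6a11 had 18.2 and 67.5 CPM (1.89). Glul, which makes glutamine from glutamate, had 170 and 452 CPM (1.41), and Aldoc, a glycolytic enzyme gene, had 39.0 and 115 CPM (1.56). Potassium channel Kcnj10 (0.15) and bicarbonate transporter Slc4a4 (0.24) differed least.

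Reactive astrocyte genes split. Of 31 entered members 6 were 2-fold lower, 1 was higher and the median was -0.17, against the same 5.18% and 4.00% of all genes. The lower ones were Steap4, a metalloreductase (103 and 19.5 CPM), the protease inhibitor Timp1 (20.4 and 3.98), the pentraxin Ptx3 (52.2 and 10.7), the iron-siderophore carrier Lcn2 (234 and 49.1), complement C3 (226 and 62.9) and the copper carrier ceruloplasmin, Cp (900.2 and 365). Each was lower in the female and in the male nuclei. Fibroblast markers in these astrocytes also went from 2252 to 829 CPM. With log-normalised clustering Lcn2 and C3 were among the top genes of a fibroblast cluster. The part of fibroblast RNA in these differences was not tested. For Lcn2 the female values were 249 and 37.1 CPM and the male values 301 and 65.6 CPM. Gfap, the filament protein most used to mark reactive astrocytes, was 621 and 948 CPM (0.61), and Vim was 230 and 224 CPM (-0.04). Fkbp5 was the 1 higher member.

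In the chemokine, complement, insulin-like growth factor (IGF) and axon guidance lists of astrocytes more members were lower than higher, where 5.18% of all astrocyte genes were lower and 4.00% higher. Chemokine genes had 5 of 12 entered members lower and 2 higher (median -0.66), with Cxcl1, which draws neutrophils, at 12.9 and 1.15 CPM and Cxcl10, an interferon-induced chemokine, at 22.4 and 3.72 CPM. Complement genes had 4 of 14 lower and none higher (median -0.75), among them C1s1, C3 and C3ar1. IGF genes had 6 of 10 lower (median -1.71), with Igf1 at 196 and 43.2 CPM and Igfbp7 at 201 and 54.7 CPM. Axon guidance genes had 6 of 21 lower and Slit1 higher (median -0.77). Slit2, a repellent ligand, was 396 and 53.1 CPM. Fibroblasts also expressed Slit2, at 2828 CPM in Ctrl and 1342 CPM in Tgfbr2-cKO, and the fibroblast markers summed to 2252 and 829 CPM in these astrocytes. The share of such RNA in the Slit2 and Igf1 differences was not tested.

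Among proteoglycans and tenascins 3 of 15 were lower in astrocytes, Tnr, Cspg4 and Has2, and Cspg5 was higher, against 5.18% and 4.00% of all astrocyte genes. OPCs also express Tnr and Cspg4, and OPC markers in the class summed to 3003 CPM in Ctrl and 2521 CPM in Tgfbr2-cKO. Their part was not tested. Tnr, tenascin-R, was 766 and 225 CPM (-1.77, -1.84 to -1.69). Among TGFβ ligands, activators and receptors 4 of 16 were lower, against the same 5.18%, and none higher, Ltbp2, Eng, Acvrl1 and Tgfb1, the last at 20.6 and 7.19 CPM, while the activating integrin gene Itgb8 was 267 and 278 CPM.

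The leading higher astrocyte genes were Thbs4, Hif3a, Etnppl, Slc7a10, Slco1c1 and S100a8. Leading genes of every class had to pass 1.5-fold the same way in both sexes. Agreement of the sexes in direction was therefore set by that choice. Thbs4 (chr13:92751590-92794818), a secreted thrombospondin, had 11.1 and 112 CPM, in the female mice 10.5 and 108 and in the male mice 23.6 and 115. Etnppl, a lipid enzyme gene typical of astrocytes, had 16.6 and 140 CPM, and the thyroid hormone transporter gene Slco1c1 22.9 and 169 CPM. S100a8, a neutrophil protein gene, had 75.3% of its astrocyte UMIs in 1 nucleus. Its ratio of 7.37 was 1.40 without the 5 nuclei holding most of it. The leading lower genes were Lum, Cxcl1, Clec2g, Steap4, Chil1 and Lcn2, Chil1 being a chitinase-like secreted protein at 109 and 21.2 CPM. Of the astrocytes, 23.8% in Ctrl and 9.79% in Tgfbr2-cKO were called doublets, where the number called per library was set beforehand. Over all alternatives the homeostatic median stayed between 0.31, with the 2 libraries clustered alone, and 1.08.

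**Figure D3:**
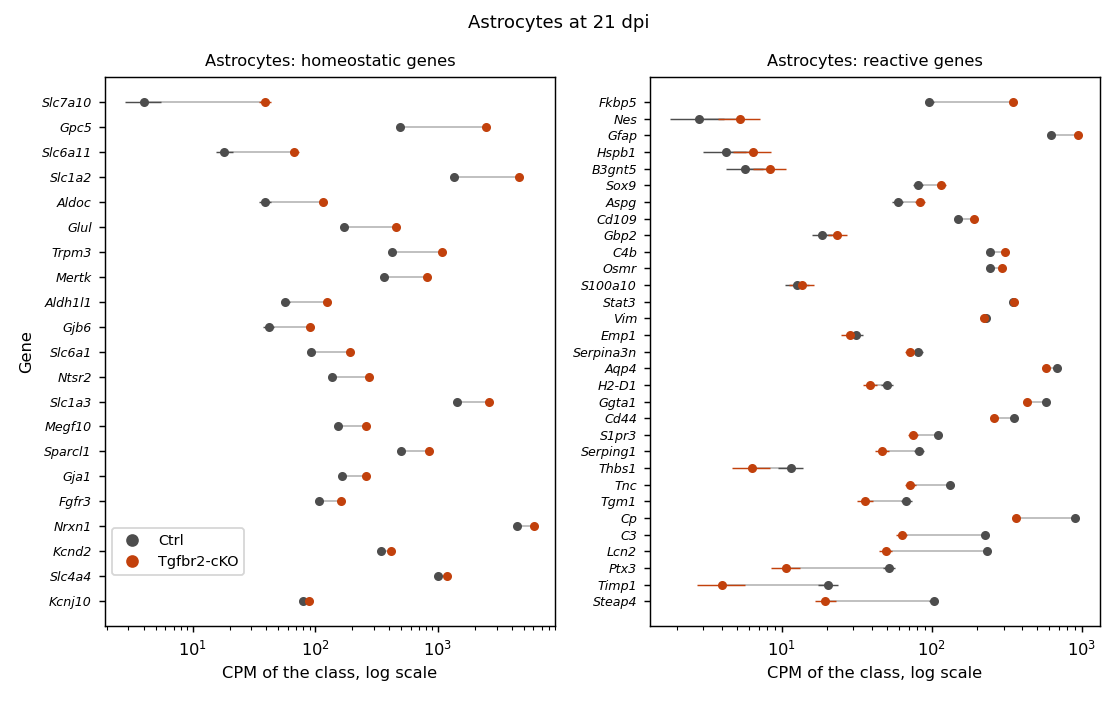
The left panel plots homeostatic genes and the right panel reactive genes of astrocytes, with CPM on a log axis and 1 line per gene joining Ctrl to Tgfbr2-cKO. Every homeostatic gene plotted is to the right in Tgfbr2-cKO, Slc1a2 from 1342 to 4619 CPM, while Steap4, Timp1, Ptx3, Lcn2, C3 and Cp are to the left.

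Oligodendrocytes, the myelin-forming cells, were scarce in the Ctrl library (139 nuclei) and frequent in the deletion library (665), yet their myelin genes were at like levels. None of 19 entered myelin genes passed 2-fold in either direction (median 0.13). Mbp, myelin basic protein, was 2684 and 3437 CPM, and Mobp, with the highest ratio, 972 and 1643 CPM (0.76). Genes of disease-associated oligodendrocytes split, with 4 of 14 higher (Apod, Cdkn1a, Sgk1 and Anln) and 3 lower (Steap3, H2-D1 and Cd63), where 4.56% of all genes of the class were higher and 5.39% lower. Apod (chr16:31296192-31314808), a lipid-carrying lipocalin, was 443 and 2656 CPM. Its female values were 622 and 4542 CPM and its male values 287 and 1126 CPM. H2-D1, a class I antigen-presentation gene, was 112 and 47.7 CPM.

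The leading higher oligodendrocyte genes were Ddc, Hif3a, Gabrr2, Zfand4, Map7d2 and Apod. Ddc (chr11:11814101-11898144), the decarboxylase that makes dopamine and serotonin, had 2 UMIs in Ctrl and 232 CPM in Tgfbr2-cKO. It was 2.42 and 430 CPM in female nuclei, and 0 and 74.6 CPM in male nuclei. Leading lower genes were Mgp, Igf1, Tafa2, Gpnmb, Ust and Mdfic, of which Mgp marked fibroblasts and Gpnmb and Igf1 were abundant in macrophages. Guidance genes had 7 of 11 lower, against those 5.39%, led by Slit2 at 549 and 41.3 CPM. Of the Ctrl oligodendrocytes 27.3% were called doublets, a higher share than in Tgfbr2-cKO, with the number called per library set beforehand. In oligodendrocytes the fibroblast markers summed to 2335 CPM in Ctrl and 338 CPM in Tgfbr2-cKO. The part of that RNA was not tested.

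OPCs, which renew oligodendrocytes, differed in few members of their own list. Of 20 entered OPC and differentiation genes 4 were 2-fold lower and 2 higher (median -0.06), where 4.14% of 6644 genes were higher (275) and 5.00% lower (332). Top2a, used in chromosome separation, was 76.3 and 25.0 CPM, the proliferation marker Mki67 47.2 and 18.6 CPM, the growth factor receptor Egfr 209 and 82.2 CPM and Enpp6, a mark of newly forming oligodendrocytes, 415 and 202 CPM. Cspg4, the NG2 proteoglycan, was higher at 79.7 and 174 CPM, and 3 of 12 proteoglycan genes were higher (Cspg4, Bcan and Xylt1) against 1 lower, Has2. Leading higher genes were Mobp, Hif3a, Gpc5, Unc13c, Tenm1 and Thsd7b. For Mobp 28.2% of the UMIs lay in 1 nucleus. Markers of astrocytes, which also express Gpc5, summed to 731 CPM in Ctrl and 2701.5 CPM in Tgfbr2-cKO OPCs, those of neutrophils to 32.5 and 1247.5 CPM and those of oligodendrocytes to 1707 and 2378.5 CPM. Their part in the higher genes was not tested. Leading lower ones included Hpgd, Sntb1, Etl4, Myo5b and Vwc2, with Hpgd, which breaks down prostaglandins, at 80.2 and 5.72 CPM.

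Endothelial cells of the deletion library had more transcripts of some blood-brain barrier transport genes. Of 21 entered barrier genes 6 were 2-fold higher and none lower (median 0.58), where 1.67% of 4439 genes were higher (74) and 5.86% lower (260). Slco1c1 (chr6:141524368-141570177), which carries thyroid hormone, was 132 and 705 CPM (2.42, 2.23 to 2.60). The organic anion transporter gene Slco1a4 was 944 and 2173 CPM, Lrp8, a lipoprotein receptor, 35.7 and 127 CPM, and the transferrin receptor gene Tfrc 47.5 and 123 CPM. Spock2 and Abcc4 were the other higher ones. In the same nuclei the 10 endothelial markers summed to 6543 CPM in Ctrl and 9366 CPM in Tgfbr2-cKO, and fibroblast markers to 3484 and 539 CPM. The part of these shifts in the barrier list was not tested. The tight-junction gene Cldn5 was 353 and 454 CPM (0.37) and the glucose transporter gene Slc2a1 356 and 612 CPM (0.78). The list's median was 0.80 in female and 0.17 in male nuclei. Slco1c1 showed that gap, with 132 and 971 CPM in the female mice and 192 and 298 CPM in the male mice, so the female Tgfbr2-cKO value carried most of the difference.

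Other endothelial lists are read against the same 1.67% of genes higher and 5.86% lower. None of 16 angiogenic genes passed 2-fold (median 0.35), with the vascular growth factor receptor Kdr at 232 and 276 CPM. Among activation and arteriovenous genes the venular chemokine-binding receptor Ackr1 (50.6 and 23.0 CPM) and the adhesion molecule Vcam1 (242 and 117 CPM) were lower and the interleukin-1 receptor Il1r1 (496 and 1117 CPM) higher, of 14. In the IGF list Igf1 and Igfbp5 were lower, the latter at 317 and 62.9 CPM, and Igfbp3 and the receptor Igf1r were higher, the latter at 902 and 2242 CPM. Leading higher genes were Slco1c1, Ttll7, Zbtb16, Acer2, Fkbp5 and Lrp8. Leading lower genes were Cmah, Col1a2, Col1a1, Mmp12, Fgf13 and Matn4. Cmah (chr13:24327404-24477377), which hydroxylates sialic acid, was 250 and 10.7 CPM (-4.54, -5.86 to -3.49), 245 and 19.5 CPM in female and 343 and 0 CPM in male nuclei. Fibroblast markers summed to 3484 CPM in Ctrl and 539 CPM in Tgfbr2-cKO endothelial cells. Their part in the lower collagens was not tested.

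Mural cells, with 141 and 64 nuclei, had higher pericyte transporter genes and lower collagens. Of 12 entered pericyte genes 4 were 2-fold higher and none lower (median 0.66), where 3.67% of 2371 genes were higher (87) and 7.00% lower (166). Atp13a5 (chr16:29231851-29378732), a transport ATPase of brain pericytes, was 468 and 2890 CPM, in the female mice 763 and 2422 CPM and in the male mice 323 and 5033 CPM. The amino acid transporter gene Slc6a20a was 230 and 1365 CPM, the matrix protein gene Vtn 204 and 959 CPM and Cspg4 117 and 291 CPM. Rgs5, another pericyte gene, was lower, at 1376 and 758 CPM (-0.86), and Pdgfrb was 816 and 1087 CPM. Fibrillar collagens had 5 of 6 lower, with Col1a1 at 577 and 44.8 CPM. Fibroblast markers in these mural nuclei summed to 5083 and 3200 CPM, and Col1a1 and Col1a2 were lower in all 12 classes. The 10 mural markers of the class summed to 6223 CPM in Ctrl and 9193 CPM in Tgfbr2-cKO. The part of either shift, in fibroblast or in mural markers, was not tested. Basement membrane genes had 2 of 9 higher, Nid1 and Lamc3. Leading higher genes included Car3, Dcdc2a, Atp13a5, Trpc4 and Slc6a20a, of which Car3 had 98.6% of its UMIs in 1 nucleus. Leading lower genes were Col1a1, Mctp1, Fgf13, Stac, Col1a2 and Zfhx4.

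**Figure D4:**
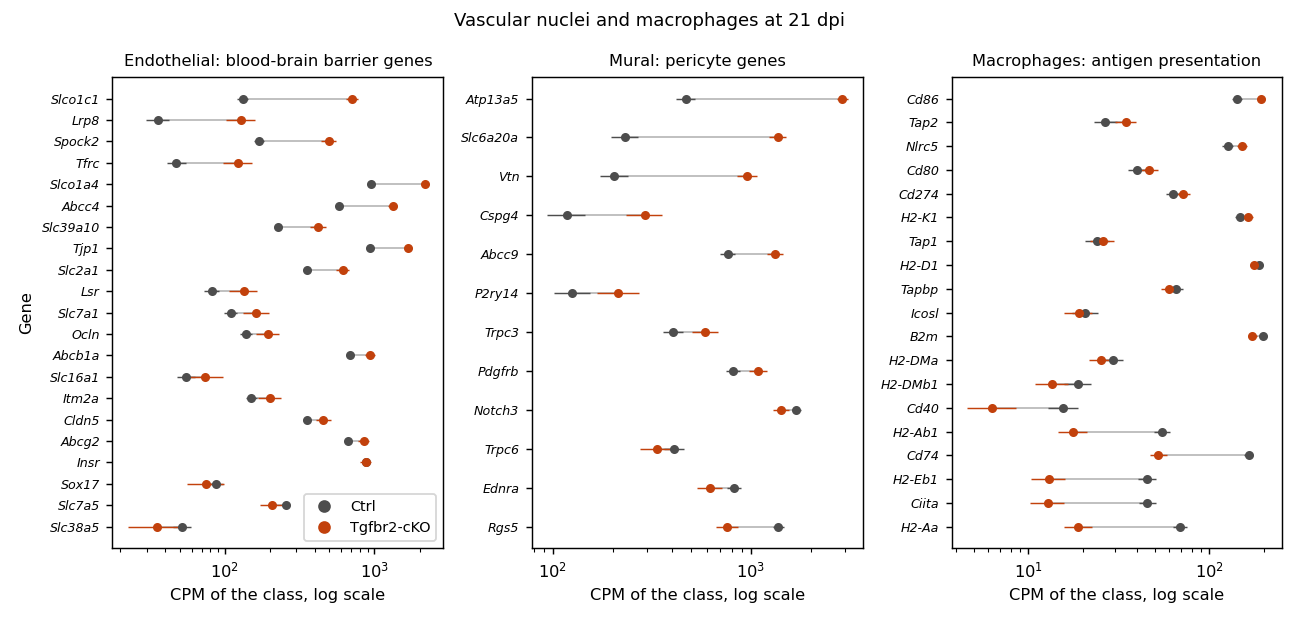
The panels plot barrier genes of endothelial cells, pericyte genes of mural cells and antigen presentation genes of macrophages, with CPM on a log axis and a line from Ctrl to Tgfbr2-cKO per gene. The Tgfbr2-cKO point lies to the right for Slco1c1 (705 against 132 CPM) and Atp13a5 (2890 against 468 CPM), and to the left for H2-Aa (18.8 against 68.8 CPM).

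Microglia, the resident macrophages of brain tissue, were above Ctrl in most of their resting-state genes. Of 20 entered homeostatic genes 18 were above Ctrl, 4 of them by 2-fold or more, and Sparc was 2-fold lower (median 0.41). The background in microglia was 2.81% of 10859 genes higher (305) and 3.42% lower (371). Siglech (chr7:55768178-55778925), a sialic acid-binding lectin, was 27.4 and 122 CPM, 38.6 and 137 in the female mice and 13.5 and 104 in the male mice. Crybb1 was 2.58 and 16.3 CPM, Tmem119 15.3 and 31.6 CPM, the purinergic receptor P2ry13 9.46 and 19.6 CPM and its relative P2ry12 221 and 394 CPM (0.84). The list's median was 0.06 when the 2 libraries were clustered alone. That clustering put fewer Ctrl nuclei, 477 against 702 of Tgfbr2-cKO, among microglia. Within the class the 10 microglia markers summed to 2001 and 2662 CPM and the 10 macrophage markers to 4085 and 2822 CPM, and the part of that shift was not tested.

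Some interferon and early-response genes of microglia were higher too. All 18 entered interferon-stimulated genes were above Ctrl, 4 by 2-fold or more (Gbp7, Gbp5, Iigp1 and Usp18, median 0.58). Gbp7, a guanylate-binding protein, was 4.44 and 25.4 CPM. Immediate early genes, which respond within minutes to stimulation or dissociation, had 6 of 15 higher and 2, Nr4a3 and Egr2, lower, with Fos at 5.45 and 22.6 CPM and Egr1 at 9.75 and 44.8 CPM. Disease- and scar-associated genes had 1 of 24 higher (Arg1) and 1 lower (Atp6v0d2). Arg1 was 1.41 and 29.2 CPM in female but 3.25 and 0.384 CPM in male nuclei. Lipid and lysosome genes had 4 of 26 lower, Ctsk, Nr1h3, Cd36 and Fabp4. Spp1, a scar-associated secreted protein, was 794 and 847 CPM. Leading higher genes were Fkbp5, Gbp7, Siglech, Crybb1, Egr1 and Il15ra, and leading lower genes Zfp979, Clec12a, Stab2, Shisa9, St18 and Adra1a, with the inhibitory lectin gene Clec12a at 54.9 and 10.5 CPM.

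Nuclei of the macrophage class had lower levels of class II antigen presentation genes and of some lipid and scar-associated genes. The background here was 3.23% of 11078 genes higher (358) and 4.36% lower (483). Of 19 entered antigen presentation genes 6 were 2-fold lower and none higher (median -0.13). H2-Aa, a class II chain, was 68.8 and 18.8 CPM, the invariant chain gene Cd74 166 and 52.3 CPM, and their regulator Ciita 45.6 and 12.8 CPM, with H2-Eb1, H2-Ab1 and Cd40 also lower. Class I genes differed little, with H2-K1 at 148 and 164 CPM and B2m at 199 and 174 CPM. So the lower members were those of the class II pathway and Cd40, a costimulatory receptor. Dendritic cells are rich in class II transcripts, and their 10 markers summed to 209 CPM in Ctrl and 74.0 CPM in Tgfbr2-cKO nuclei of this class. Their part was not tested.

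Scar-associated macrophage genes had 5 of 21 lower and none higher (median -0.33). Lpl, which splits fats outside the cell, was 678 and 150 CPM, the integrin gene Itgax 92.0 and 27.6 CPM and Cd9 203 and 91.4 CPM, while Trem2 was 188 and 150 CPM, Gpnmb 2186 and 1926 CPM and Spp1 577 and 408 CPM. Lipid and lysosome genes had 5 of 26 lower and Apoc2 higher, with Cd36, a scavenger receptor for lipids, at 447 and 70.3 CPM (-2.67, -2.81 to -2.53). Border macrophage genes had 5 of 17 lower (Mgl2, Folr2, Ednrb, Clec10a and Cbr2) and Ms4a6b higher, and Mrc1, the mannose receptor, was 768 and 1035 CPM. None of 22 interferon-stimulated genes passed 2-fold (median 0.25). Among TGFβ ligands, activators and receptors 3 of 12 were lower, Ltbp3, Itgb8 and Tgfbr3.

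Leading higher macrophage genes were Fkbp5, Nrg4, Jaml, Apoc4, Kynu and Fam169b. Nrg4, a neuregulin ligand, was 11.2 and 83.5 CPM and Kynu, an enzyme of tryptophan breakdown, 46.5 and 284 CPM in macrophage cluster 0. Leading lower genes were Mmp12, Mamdc2, Ptchd1, Egr2, Cd36 and Klra17. Mmp12 (chr9:7344381-7369499), macrophage elastase, was 412 and 41.9 CPM, 381 and 32.0 in the female mice and 414 and 24.6 in the male mice. Going the same way in both sexes was a condition for a leading gene. Within clusters Cd36 was lower in all 3, and the class II genes were lower in 2. Cluster 0, led by Fabp4 and Slamf8, had 715 and 126 CPM of Mmp12, 547 and 107 CPM of Cd36 and 99.7 and 40.4 CPM of H2-Aa, and cluster 1, led by Mrc1 and F13a1, had 96.0 and 34.2 CPM of Cd36 and 51.6 and 7.04 CPM of H2-Aa. In cluster 11, with 154 and 47 nuclei, Cd36 was 1393 and 256 CPM, but H2-Aa was 27.4 and 26.1 CPM. Cd74 went the other way there, at 59.4 and 91.3 CPM, against 228 and 94.4 CPM in cluster 0 and 137 and 26.9 CPM in cluster 1.

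Dendritic cells, with 133 and 88 nuclei, gave few entered genes, 2.26% of 2615 higher (59) and 2.14% lower (56). Leading higher genes were Fkbp5, Il1r2, Mirt1, Sfxn5, Gsr and Ksr1, and leading lower genes included Il12b, Hdac9, Dab2, Siglech and Mob3a. Il12b, a subunit of interleukin-12, was 465 and 34.8 CPM, but 59.2% of its UMIs lay in 1 nucleus. Neutrophil markers summed to 1044 CPM in Ctrl and 1435 CPM in Tgfbr2-cKO dendritic nuclei, and Il1r2 is among the genes neutrophils express. Their part was not tested.

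T/NK cells were 2 clusters, cluster 12 with 271 Ctrl and 240 Tgfbr2-cKO nuclei and cluster 24 with 47 and 66. In the pooled class 3.61% of 6796 genes were higher (245) and 4.49% lower (305). The leading higher genes S100a9, S100a8, Hdc, Il1r2, Apoc4 and Clec4e were mostly neutrophil genes. The neutrophil markers summed to 53.0 CPM in Ctrl and 4817 CPM in Tgfbr2-cKO. In cluster 24 of Tgfbr2-cKO 2800 UMIs of S100a8 lay in 16 of 66 nuclei. Without that cluster the ratio of S100a8 moved from 9.75 to 1.09, that of S100a9 from 11.24 to 2.67 and that of Clec4e from 4.94 to -0.91. Leading lower genes were Mfap4, Col1a2, Col1a1, Ecrg4, Mgp and Mmp13, several of them fibroblast transcripts, and 92.8% of the Mfap4 UMIs lay in 1 nucleus.

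Lists of lymphocyte genes differed in a few members. In cluster 12 Itgae, the αE integrin chain that holds T cells in tissue and is known to be induced by TGFβ, was 94.1 and 333 CPM, with UMIs in 41 of 271 and 81 of 240 nuclei. Its ratio in the whole class was 1.69 in female and 1.84 in male nuclei. Ctla4, an inhibitory receptor, was 53.4 and 170 CPM there but had UMIs in 26 of 271 and 25 of 240 nuclei, so the higher level came with a like number of positive nuclei. There too the chemokine receptor gene Ccr6 was 18.6 and 57.9 CPM and Trdc, the constant part of the γδ T cell receptor, 92.9 and 169 CPM. Residency genes had 2 of 17 higher (Itgae and Rgs2), subset genes 3 of 16 (Ctla4, Trdc and Tcrg-C1), cytotoxic and effector genes 3 of 15 (Ccl3, Cx3cr1 and Tnf) and circulation genes 3 of 12 (Ccr6 and Klf2 among them), with none lower in any of these lists. Their medians ran from 0.10 to 0.31. Cx3cr1, a receptor gene that myeloid cells also express, was 37.2 and 48.1 CPM in cluster 12 but 130 and 443 CPM in cluster 24, and the ratio of Tnf was -1.60 in female and 2.75 in male nuclei. Without cluster 24 the cytotoxic and effector median was -0.03, that of subset genes 0.49 (0.31 with it) and that of circulation genes 0.45 (0.10 with it), and myeloid markers in the class summed to 2168 and 3951 CPM. The ratio of Ctla4 was 1.67 in female nuclei, and male nuclei had too few UMIs for one. SMADs and TGFβ feedback genes had Id3 and Smad1 lower of 14. Immediate early genes had 6 of 10 higher (median 1.21), but the median was 0.15 without cluster 24.

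Fibroblasts, the targeted cells, were taken as clusters 3, 6, 7 and 23, with 3687 Ctrl and 562 Tgfbr2-cKO nuclei. Cluster 3 held 1891 and 360 of them, cluster 6 held 309 and 118, and cluster 7, with few UMIs per nucleus and 37.0% called doublets, held 1463 and 84. When the 2 libraries were clustered alone, 1 fibroblast cluster held 1808 Ctrl and 9 Tgfbr2-cKO nuclei and another, led by Ebf3 and Lvrn, held 2 and 364. The class therefore compares nuclei that fell into different clusters. Cluster 5, with 9 raised fibroblast markers and 1654 Ctrl and 3 Tgfbr2-cKO nuclei, stayed outside it. The B and plasma cell markers, Ebf1 among them, summed to 576 CPM in Ctrl and 2054 CPM in Tgfbr2-cKO fibroblasts. Their sum was higher still in mural cells (5498 and 4472 CPM) than in T/NK cells (2221 and 2600 CPM). It therefore does not single out RNA of B cells, and its part in the ratios was not tested. The leading higher genes were Gabrg3, Ebf3, Lvrn, Cxcl5, Mme and Stxbp6. Mme, the peptidase neprilysin, was 2.83 and 67.8 CPM, alike in both sexes (4.66 and 4.81), whereas Gabrg3 was 508.6 CPM in male and 35.1 CPM in female Tgfbr2-cKO nuclei and also 457 CPM in that library's other nuclei. The leading lower genes were Adamts17, Mmp12, Tnc, Dnajc5b, Tnmd and Slc47a1, with Tnmd, a tendon-type matrix protein, at 8.25 and 0.194 CPM.

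Retinoid and arachnoid transport genes split in fibroblasts, with 6 of 18 higher and 6 lower, where 4.51% of all fibroblast genes were higher and 4.72% lower. The list's median was -0.27, but it was 1.37 with log-normalised clustering and 1.38 with clusters 5 and 10 counted in. Aldh1a1 (chr19:20492715-20643465), which makes retinoic acid, was 106 and 877 CPM, and Cyp26b1, which degrades it, 1.86 and 33.9 CPM. The cystine transporter gene Slc7a11 was 176 and 1522 CPM (3.17 in female and 3.12 in male nuclei). Against these, the organic cation exporter gene Slc47a1 was 849.7 and 105 CPM and Stra6, the retinol-uptake receptor, 11.2 and 1.94 CPM. Aldh1a1 was also higher in cluster 10, at 82.6 and 761 CPM, where Hif3a, Ankfn1, Scara5, Moxd1 and Slc24a4 were the other leading higher genes and Slc47a1, Slc47a2, Slc26a7, Vwc2, Cyp2f2 and Kcnb2 the leading lower ones. In cluster 10 2.66% of 10074 genes were higher (268) and 3.68% lower (371).

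Other fibroblast lists are read against the same 4.51% higher and 4.72% lower. Among guidance genes Slit3 was 499.9 and 2828 CPM while Slit2 was 2828 and 1342 CPM, both being repellent ligands of Robo receptors. Of 19 entered genes 3 were higher (Slit3, Sema3e and Plxnd1) and 4 lower (Unc5c, Sema3d, Sema3c and Slit2). Complement genes had 3 of 16 higher, C1ra and Serping1 among them, and Itgam lower. Bone morphogenetic protein genes had 3 of 17 lower (Gdf10, Nbl1 and Chrdl1) and Fst, which traps activins, higher at 1.99 and 42.6 CPM. IGF genes had 3 of 10 lower, with Igf1 at 460 and 111 CPM. Basement membrane genes had Lama1 and Col4a6 higher and Lama3 lower of 18 (median 0.23), and the 7 entered contractile genes were all above Ctrl, Tpm2 and Mylk by 2-fold or more (median 0.67). Markers of mural cells, which are contractile, summed to 226 and 437 CPM in the same fibroblasts, and their part was not tested.

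In fibroblasts the list of TGFβ ligands, activators and receptors had more members past 2-fold than the list of SMAD and feedback genes. Of 17 SMAD and feedback genes only Skil, a SMAD repressor that TGFβ induces, was 2-fold lower, at 105 and 46.1 CPM (-1.19), against 4.72% of all genes, and the median was -0.13. Pmepa1 was 237 and 132 CPM (-0.85). Of 17 ligands, activators and receptors Nrros, Ltbp1 and Tgfb3 were lower, against 4.72% of all genes. The activating integrin Itgb8 (122 and 264 CPM) and the co-receptor Tgfbr3 (453 and 999 CPM) were higher, against 4.51% of all genes. Itgb8 had a ratio of 0.33 in female and 1.35 in male nuclei.

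Neurons differed in kind as well as number. Cluster 9 held 67 Ctrl and 446 Tgfbr2-cKO nuclei, cluster 15, led by interneuron genes such as Sst and Pvalb, 154 and 216, cluster 22 held 53 and 143, and cluster 17 held 4 and 191. Their median depth was 9369 UMIs in Ctrl and 23888.5 in Tgfbr2-cKO. None of 25 synaptic genes passed 2-fold (median 0.10), where 1.54% of 10059 genes were higher (155) and 3.03% lower (305). The presynaptic gene Snap25 was 875 and 950 CPM. Leading higher genes were Rgs9, Adamts16, Unc13c, Ddit4l, Sema5b and Rgs22, and leading lower genes Cachd1, Epha6, Cntnap5c, Arhgap12, Nr3c2 and Rnf182. Epha6, a guidance receptor, was 2529 and 700 CPM over all neurons. It was 4668 and 828 CPM in cluster 15 but 743 and 787 CPM in cluster 9, so its difference was not shared by these clusters. Cluster 19 held 42 nuclei of Tgfbr2-cKO and none of Ctrl and had 1038 CPM of Rgs9, against 4.66 and 9.67 CPM in cluster 9, 7.23 and 21.0 CPM in cluster 15 and 15.3 and 8.71 CPM in cluster 22. The pooled Rgs9 ratio thus compares different clusters.

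The other 4 libraries place several of these values. At 7 dpi Slc1a2 in astrocytes was 495 CPM in Ctrl, 469 CPM in ADWA11 and 5952 CPM in Tgfbr2-cKO, and at 21 dpi it was 914 CPM in ADWA11, ADWA11 being wild-type mice given an antibody to integrin αvβ8. Both Tgfbr2-cKO libraries were therefore above the other 4. They also held the most neurons, 58.7% of nuclei at 7 dpi and 16.4% at 21 dpi against 0.449% to 2.30% in the other 4, and the most oligodendrocytes, and the part of that difference in these levels was not tested. The same order held for Atp13a5 in mural cells (3255 CPM in Tgfbr2-cKO at 7 dpi and at most 468 CPM in the other 4), for Slco1c1 in endothelial cells (431 CPM and at most 132 CPM) and for Siglech in microglia (168 CPM and at most 50.1 CPM). The 7 dpi Tgfbr2-cKO values rest on 39 mural and 38 endothelial nuclei, fewer than the 50 asked for at 21 dpi. Itgae in T/NK cells did not follow this order. At 7 dpi Ctrl had 154 CPM and Tgfbr2-cKO 142 CPM, at 21 dpi they had 78.1 and 251 CPM, and ADWA11 had 23.2 CPM at 7 dpi and 18.6 CPM at 21 dpi. Lcn2 in astrocytes instead followed time. It was at most 8.88 CPM in the 3 libraries at 7 dpi, and 129 CPM in ADWA11 at 21 dpi. H2-Aa in macrophages was 263 CPM in ADWA11 at 21 dpi and between 17.0 and 27.9 CPM at 7 dpi, so the Tgfbr2-cKO level at 21 dpi of 18.8 CPM lay near those of 7 dpi. Mmp12 in macrophages was 467 CPM in ADWA11 at 21 dpi, and in the 7 dpi libraries 48.2 CPM in Tgfbr2-cKO, 97.6 CPM in Ctrl and 261 CPM in ADWA11. At 7 dpi Cd36 in macrophages was 337 CPM in Ctrl against 309 CPM in Tgfbr2-cKO, where the male Tgfbr2-cKO value of 357 CPM lay above the male Ctrl value of 278 CPM, and ADWA11 had 1071 CPM at 7 dpi and 514 CPM at 21 dpi. Fkbp5 in macrophages of Tgfbr2-cKO at 7 dpi was 359 CPM in the female and 97.4 CPM in the male mouse, with 111 and 90.6 CPM in Ctrl.

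**Figure D5:**
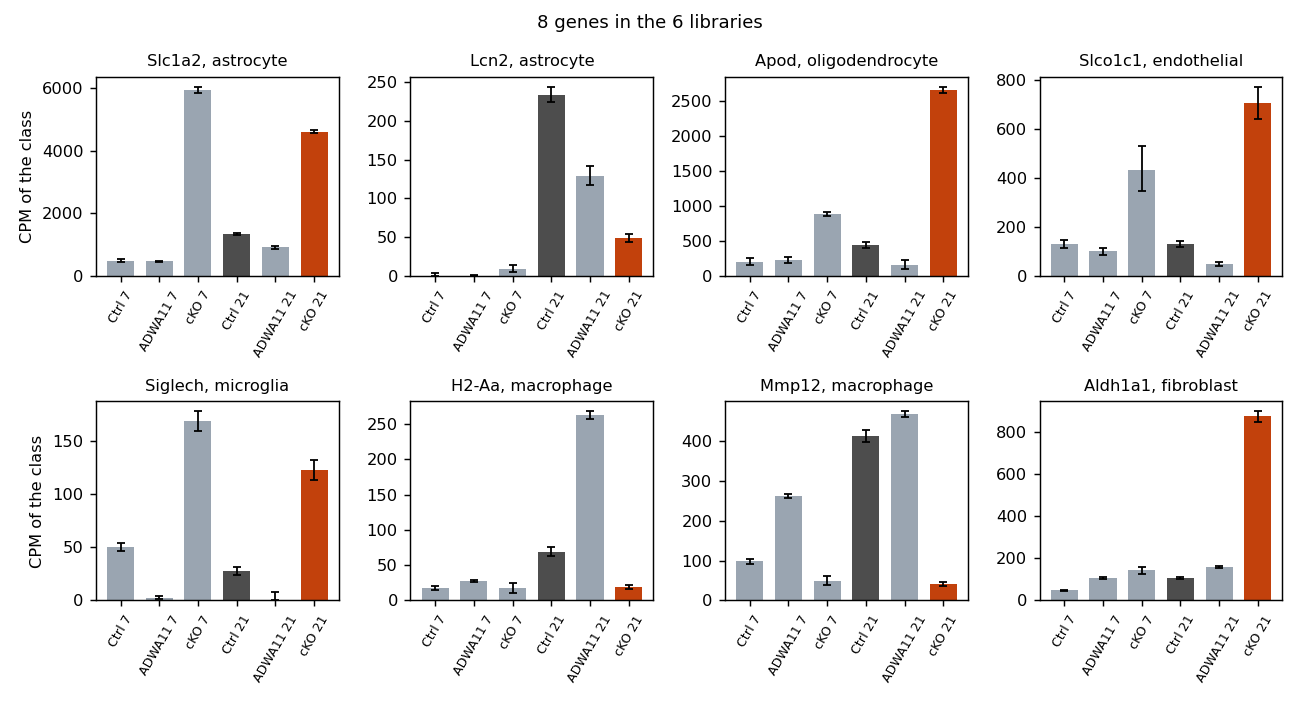
Each panel plots the level of 1 gene in 1 class, in CPM on a linear axis from 0, for the 6 libraries, with a bar for all nuclei of the class and exact 95% counting limits. Slc1a2 and Slco1c1 are highest in the 2 Tgfbr2-cKO libraries, and H2-Aa is highest in ADWA11 at 21 dpi with 263 CPM.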

How the data were processed

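Each library was deposited as counts, which the authors made with Cell Ranger on mm10, version 7.1.0 per the labels' processing notes but 7.2.0 per the file headers and the study's methods, as UMIs per gene and barcode. Barcodes with at least 1000 UMIs and under 5% mitochondrial UMIs were kept, 12069 in Ctrl and 6328 in Tgfbr2-cKO at 21 dpi. All 6 libraries were clustered together in Seurat 5.3.0 (R 4.3.3) after sctransform 0.4.2, with 3000 variable genes, 30 principal components and resolution 0.5. Scrublet in scanpy 1.11.5 scored doublets, and the highest scores were called up to an expected 0.8% per 1000 barcodes of each library. Called doublets were kept unless they made up 50% of a cluster.

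A cluster was named when at least 3 of a class's 10 markers were detected in 5% of its nuclei at 2-fold or more over the other nuclei. It stayed unnamed on a tie, or where markers of another class led its 10 top genes. These names may differ from the study's. UMIs were summed per class and library (Python 3.11.15), for classes of at least 50 nuclei in both, and exact intervals came from scipy 1.17.1. A count of 0 was set to a floor of 3 UMIs in ratios. TMM factors came from edgeR 4.0.16, used for scaling only. Coordinates are from GENCODE, which matched 32158 of 32285 features, and promoters from RefSeq. The leading genes were the 6 per direction and class whose counting interval lay farthest from 0. Each was past 2-fold, past 1.5-fold the same way in both sexes and past 2-fold without the 5 nuclei holding most of its UMIs. On its higher side the level was at least 0.5 of that in other nuclei. The ratio without those 5 nuclei is printed only for S100a8 in astrocytes. Members and the 39 gene lists were chosen with earlier results of these data known. Scripts were tested on simulated data. Alternatives were other clusterings and resolution, doublets, UMI and count minimums, each sex, denominators, TMM and per-nucleus means. Those on clusters 5 and 10, 7 and 24 were chosen after seeing the data. Depth limits precision as the intervals show. A few genes of the lists and of the leading genes are not reported here.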

Additional observations from a re-analysis of the deposited data

Results flagged for a closer look

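Of 13 class shares and 858 list members (871 items), 6 had ratios past 2-fold in opposite directions in female and male nuclei. Each sex is 1 mouse per library, and the difference was not tested. Values are the female minus the male log2 ratio.

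In microglia, Fn1, fibronectin, differed by -5.00, with 192 CPM in Ctrl and 38.3 CPM in Tgfbr2-cKO females, and 68.8 and 441 CPM in males. Arg1, arginase, differed by 7.46, at 1.41 and 29.2 CPM in females and 3.25 and 0.384 CPM in males, and Ch25h, which makes an oxysterol, by -4.91, at 9.58 and 0.913 CPM in females and 6.04 and 17.3 CPM in males. In T/NK cells the cytokine gene Tnf differed by -4.36, at 41.6 and 13.7 CPM in females and 18.9 and 127 CPM in males, and Lcn2, which neutrophils also express, by -6.32, at 15.9 and 1.71 CPM in females and 11.3 and 98.0 CPM in males. In fibroblasts the stress gene Ddit4 differed by 3.38, at 11.0 and 27.8 CPM in females and 16.3 and 3.96 CPM in males. Several of these values rest on few UMIs.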

How the results depend on the processing

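No paired analysis was possible because each group was 1 library. A share ratio is called reversed where its reported 95% interval left out 0 and the sign changed, and moved where it otherwise fell outside that interval. List medians were judged the same way against the median lower and the median upper limit of their members. That range is not a 95% interval of the list median. Of the share ratios recomputed, 59 stayed within their counting interval, 36 moved and 1 reversed, and 4 others, of classes whose interval held 0, also changed sign.

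Clustering the 2 libraries alone gave -0.15 for astrocytes, 1.49 for microglia and 0.055 for macrophages. Log-normalised clustering gave -1.65 for fibroblasts, 0.71 for microglia, 0.31 for macrophages, 0.60 for T/NK cells, 0.61 for astrocytes and 3.06 for neurons. Resolution 1 gave -2.24 for fibroblasts and 0.17 for macrophages. Female nuclei gave -0.081 for cluster 10, 0.65 for macrophages, -0.26 for dendritic cells, 1.29 for T/NK cells, 0.14 for astrocytes and 2.56 for neurons. Male nuclei gave -1.53 for fibroblasts, 0.51 for cluster 10, 0.30 for macrophages, 0.51 for T/NK cells, -1.82 for endothelial cells, -0.76 for mural cells, 1.07 for astrocytes and 3.94 for neurons. Without neurons and oligodendrocytes in the denominator the ratios were -1.38 (fibroblasts), 0.51 (cluster 10), 0.86 (microglia), 0.88 (macrophages), 0.74 (dendritic cells), 1.28 (T/NK cells), -1.08 (endothelial cells), 0.78 (astrocytes) and 0.64 (OPCs). Nuclei of at least 2000 UMIs gave 3.05 for neurons, leaving out doublets 0.53 for astrocytes, and leaving out cluster 7, chosen after seeing the data, -1.29 for fibroblasts.

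Counts of genes past 2-fold were 1055 in fibroblasts, 639 in cluster 10, 676 in microglia, 841 in macrophages, 115 in dendritic cells, 550 in T/NK cells, 334 in endothelial cells, 253 in mural cells, 1209 in astrocytes, 607 in OPCs, 517 in oligodendrocytes and 460 in neurons. In that order they were 1744, 1324, 1380, 1682, 521, 1416, 910, 857, 2001, 1489, 1191 and 1066 with a minimum of 10 expected UMIs, and 568, 268, 203, 326, 13, 158, 103, 53, 598, 203, 150 and 145 with 100. Female nuclei gave 45 in dendritic cells, 342 in T/NK cells, 211 in endothelial cells, 107 in mural cells, 293 in OPCs and 279 in oligodendrocytes. Male nuclei gave 316 in cluster 10, 292 in microglia, 275 in macrophages, 43 in dendritic cells, 203 in T/NK cells, 101 in endothelial cells, 92 in mural cells, 422 in astrocytes, 285 in OPCs, 113 in oligodendrocytes and 103 in neurons. The libraries clustered alone gave 230 in microglia and 516 in astrocytes, log-normalised clustering 357 in T/NK cells, resolution 1 524 in macrophages and 289 in T/NK cells, means per nucleus 206 in dendritic cells and 1067 in neurons, and leaving out doublets 218 in oligodendrocytes. With TMM, OPCs had 320 higher and 282 lower.

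Of the list medians 9 reversed, 90 moved and 555 did neither, and 35 others whose range held 0 also changed sign. The retinoid list in fibroblasts was 1.37 with log-normalised clustering, 0.48 with the libraries clustered alone, 0.034 at resolution 1, 1.38 with clusters 5 and 10 and 0.011 with means per nucleus. The proteoglycan list in astrocytes was 0.016 at 100 expected UMIs. The glucocorticoid list was -0.17 in male fibroblasts, and in T/NK cells -0.072 with log-normalised clustering and -0.28 without cluster 24. Of the values of leading genes, without those not reported here, 5 reversed, 373 moved and 996 did neither. With the libraries clustered alone Adra1a in microglia was 0.38 and Il1r2 and Clec4e in T/NK cells -0.93. Clec4e was -1.42 with log-normalised clustering and -0.91 without cluster 24. The cause of these differences was not tested.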

Other observations

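Some feedback genes of the TGFβ pathway were lower in astrocytes. Of 18 entered SMAD and feedback genes 3 were 2-fold lower and none higher (median -0.23), where 5.18% of 13163 astrocyte genes were lower and 4.00% higher. Smad7, an inhibitor that the pathway induces, was 74.3 and 36.6 CPM in Ctrl and Tgfbr2-cKO, Skil 56.7 and 22.5 CPM, and Pmepa1 87.3 and 29.3 CPM, and each was below Ctrl in female and in male nuclei. Fibroblast RNA in these astrocytes was also lower in Tgfbr2-cKO, and its part was not tested. Vegfa, the vascular growth factor, was higher in astrocytes (41.8 and 101 CPM) and fibroblasts (59.8 and 121 CPM) and lower in microglia (23.2 and 9.79 CPM). Hmox1, which breaks down heme, was 31.0 and 83.6 CPM in microglia, with ratios of 2.24 in female and 0.79 in male nuclei. In macrophages it was 59.3 and 119 CPM, but the male ratio was -0.85.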
